A study of Mus musculus with 22 samples.

Results

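The genes that copy DNA were described in sorted microglia of aged mice. The set holds 41 genes named by symbol: cyclins and a transcription factor of the step from G1 into S phase, the genes that license and open replication origins, the enzymes of the replication fork, the enzymes that supply nucleotides, and the factors that pack the new DNA into chromatin. All 41 were found among the 54532 genes of the deposited count table. All 41 passed the filter on low counts, which kept 16554 genes.

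Microglia are the resident macrophages of the brain, long-lived cells that renew themselves slowly. Before S phase the MCM2-7 helicase is loaded on origins by CDC6 and CDT1. The kinase of cyclin E and CDK2 then helps to start it, and E2F transcription factors switch on many of the genes described here at that time. Messenger RNAs of this kind are used as signs of cells that enter or pass S phase, but RNA alone does not show that DNA was made.

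Male C57BL/6J mice were injected once a day for 10 days, from 10 weeks of age, with 0.7 mg/kg pyridostigmine bromide (an inhibitor of acetylcholinesterase) and 200 mg/kg permethrin (an insecticide), or with vehicle, as a model of Gulf War Illness, and were kept to 17.5 months. Exposed mice of the cannabidiol arm then received 30 mg/kg cannabidiol (CBD, a plant cannabinoid) daily for 28 days and every 2 days for another 2 weeks, and all other mice received its vehicle. On the next morning each mouse received 0.33 mg/kg lipopolysaccharide (LPS, a bacterial cell wall component that activates innate immune cells) or saline (PBS), and 24 hours later live CD45mid CD11b+ CD11a- cells were sorted from the brain. The 22 poly(A) RNA libraries form 6 groups. Unexposed mice gave 4 libraries after saline (Ctrl-PBS) and 4 after LPS (Ctrl-LPS), and exposed mice without CBD gave 4 (GW-PBS) and 3 (GW-LPS). Exposed mice with CBD gave 3 libraries after saline (GW-CBD-PBS) and 4 after LPS (GW-CBD-LPS). No group received CBD without the exposure. The labels do not say whether a library is 1 mouse, so the p-values measure the spread between libraries. Libraries are numbered as in their library names, so GW-LPS and GW-CBD-PBS run from 2 to 4.

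Each library held 28676930 to 40458326 counts. The summed level of 10 microglial marker genes was 26565 to 51750 CPM (counts scaled to the library size) over the libraries and moved with the groups. In unexposed mice it spanned 40584 to 51750 with saline and 26565 to 36162 with LPS. In exposed mice it spanned 45706 to 47152 and 28610 to 37207, and with CBD 46327 to 49165 and 43260 to 49839. The LPS and PBS libraries thus overlapped in the CBD arm alone. Of the other cells that could be in the gate, granulocyte precursors (marker genes such as Elane, Mpo and Camp) stood out: their summed level was 17249 CPM in Ctrl-PBS 3, 1426 in Ctrl-LPS 1 and 1104 in GW-PBS 1. Ctrl-PBS 3 was also the highest library of its group for 33 of the 41 replication genes. In the 4 GW-CBD-LPS libraries the 10 granulocyte precursor markers summed to 0.95, 3.46, 0.71 and 1.24 CPM. The 9 neutrophil markers summed to 602, 708, 569 and 447 CPM there. Markers of other cells varied as well. Ctrl-PBS 3 had the highest neutrophil (11200 CPM), monocyte (270) and T and NK cell (29.1) sums of all libraries. Erythroid markers ran from 60.2 to 1765 CPM. The mean border macrophage sum was 282 CPM in Ctrl-PBS and 374 in Ctrl-LPS, 223 in GW-PBS and 452 in GW-LPS. It was 301 CPM in GW-CBD-PBS and 290 in GW-CBD-LPS. The part of these cells in the values below was not tested. In bulk RNA a change in the number of cycling cells and a change in RNA per cell cannot be told apart. Below, ± is the SD of CPM values or the SE of a log2 fold change, and a gene is said to rise or fall where the Benjamini-Hochberg adjusted p of edgeR's quasi-likelihood test, taken over all 16554 genes, was under 0.05.

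RefSeq promoter stretches (build GRCm38.p6, 250 bases before to 50 after a start) were found for 36 of the 41 genes. The letters TTTCCCGC, TTTCGCGC, TTTGCCGC or TTTGGCGC, a core that E2F factors are known to bind, stood on either strand, overlaps allowed, in 15 of these 36 genes (41.7%), against 704 of all 27025 genes with such a stretch (2.61%). CCAAT stood in 58.3% of the 36 and 41.1% of all genes, and TTTGAA in 11.1% and 20.2%. The genes with the E2F-type letters included Mcm3, Mcm5, Mcm6, Mcm7, Cdc6, Cdt1, Pola1, Rfc3, Pclaf, Uhrf1 and Hells. A match is a description of the letters, not a measured site. Mcm5 and Mcm6, subunits of the helicase, are shown because each has 2 overlapping matches on opposite strands before its start. They are printed 5′ to 3′ on the gene's own strand, up to the base before the start, with every matching run in capitals. Mcm5 is at chr8:75109259-75109508 (plus strand) and Mcm6 at chr1:128359706-128359955 (minus strand).
Mcm5: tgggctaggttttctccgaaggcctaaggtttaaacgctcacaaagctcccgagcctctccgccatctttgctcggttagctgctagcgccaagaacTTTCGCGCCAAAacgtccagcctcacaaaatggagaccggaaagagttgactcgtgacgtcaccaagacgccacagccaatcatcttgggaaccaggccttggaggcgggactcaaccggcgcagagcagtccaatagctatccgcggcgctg
Mcm6: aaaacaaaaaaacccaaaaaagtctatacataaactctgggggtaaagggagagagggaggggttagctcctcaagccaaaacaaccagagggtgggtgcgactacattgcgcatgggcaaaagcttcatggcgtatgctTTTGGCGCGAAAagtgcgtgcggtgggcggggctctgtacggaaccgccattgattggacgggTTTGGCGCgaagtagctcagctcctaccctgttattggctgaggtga
In Mcm5 the capitals run from base -153 to base -142 before the start. In Mcm6 they run from -110 to -99, and a separate match lies at -47 to -40.

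**Figure D1:**
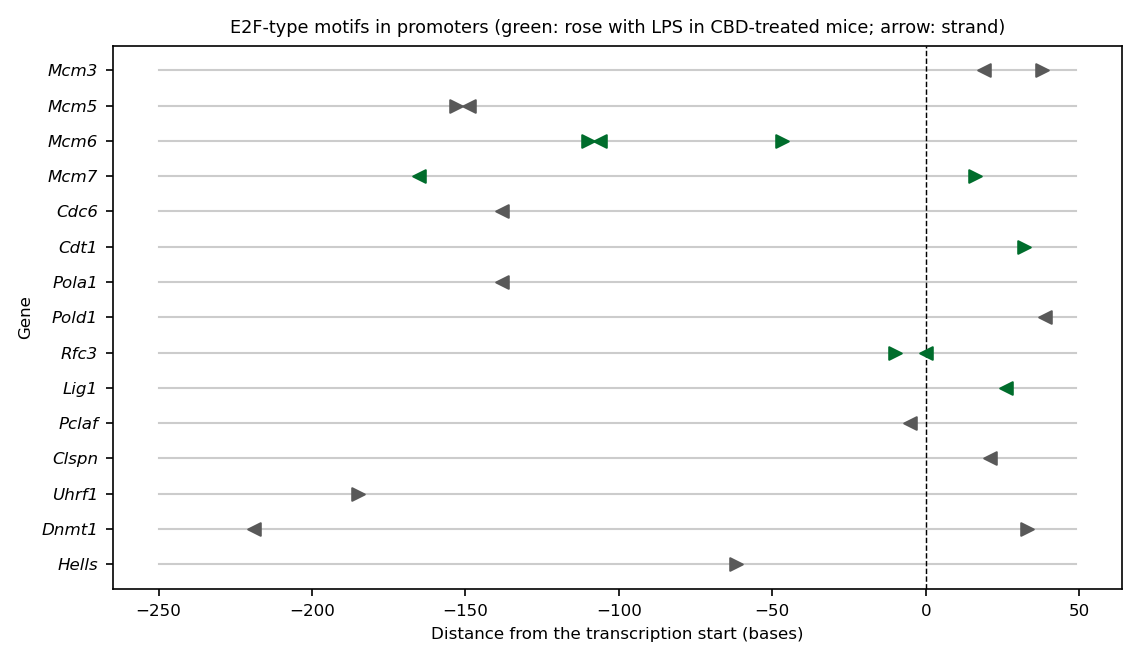
Position of each E2F-type match (first base, in bases from the transcription start) on the promoter stretches of the 15 genes that hold one; an arrow gives the strand, and green marks genes that rose with LPS in CBD-treated mice. Matches lie on both sides of the start, and 5 of the 15 genes are green. Among genes with a promoter stretch, a match was held by 5 of the 14 that rose and by 10 of the 22 others.

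Replication genes rose with LPS in CBD-treated exposed mice, 15 of 41. All 41 genes had a positive log2 fold change from GW-CBD-PBS to GW-CBD-LPS, from 0.31 (Slbp) to 4.56 (Cdc6), with a median of 2.10 against 0.00 over all genes tested. None of the 41 fell (0.393% of all genes rose and 0.0242% fell). An unadjusted p under 0.05 was reached by 40 genes, and in 38 the groups did not overlap, all of them higher (8.38% of all genes higher and 5.79% lower). The summed CPM of the 41 genes was 594, 641 and 603 in GW-CBD-PBS and 2339, 2175, 868 and 2084 in GW-CBD-LPS. GW-CBD-LPS 3 lay well below the other 3 libraries of its group and was the lowest of them for 39 of the 41 genes, yet it was above every GW-CBD-PBS library in this sum. The number that rose was 34 without GW-CBD-LPS 3, 1 without GW-CBD-LPS 1 or 4, 3 without GW-CBD-LPS 2, and 0 when any 1 of the 3 GW-CBD-PBS libraries was left out. All 15 calls held without GW-CBD-LPS 3, and Tcf19, Pcna and Chaf1b were the only ones to hold without some other library. The median stayed between 1.91 and 2.29 in all of these fits, and no fold change turned negative. DESeq2 called 39 of the 41 higher and limma voom 41. The shares of all genes given here belong to the edgeR fit of all libraries. They were not counted for the other tools or the fits that follow or omit a library, so these counts have no such share beside them. Without the 3 libraries with granulocyte markers, none of them in the CBD arm, edgeR called 31, and with no filter on low counts 27. With only the compared groups in the fit 17 rose, but 7 of the 15 genes lost their call, Cdt1, Mcm6, Pcna, Gins2, Rfc4, Rpa2 and Pola2 (adjusted p = 0.0516 for Cdt1 to 0.1175 for Pola2).

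Without CBD, 4 of the 41 genes rose with LPS in each of the other 2 arms. In unexposed mice none fell (10.8% of all genes rose and 9.62% fell), with a median log2 fold change of 0.42 against -0.02 over all genes. The count of 4 in unexposed mice is near the share of all genes that rose, so it sets these genes apart from others in no way. In exposed mice none fell either (4.45% of all genes rose and 5.07% fell), with a median of 0.77 against -0.04. The genes that rose were Cdt1, Gins1, Rfc4 and Chaf1b in unexposed mice and Mcm2, Mcm6, Cdt1 and Pold1 in exposed mice. The count in unexposed mice was 0 without Ctrl-PBS 4, Ctrl-LPS 1 or Ctrl-LPS 3, 1 without Ctrl-PBS 1 or 2, 2 without Ctrl-LPS 4, 1 without the 3 libraries with granulocyte markers, and 2 with RLE size factors or no filter on low counts. Without Ctrl-LPS 1, 1 of the 41 fell. The count was 0 in exposed mice without GW-PBS 3, GW-PBS 4, GW-LPS 2 or GW-LPS 4, 1 without GW-PBS 1, 7 without GW-PBS 2, 1 without the 3 libraries with granulocyte markers, 1 with only the compared groups in the fit, 9 with DESeq2 and 15 with limma voom. Summed over the 41 genes, Ctrl-PBS held 619, 542, 937 and 617 CPM and Ctrl-LPS 1057, 631, 1056 and 735, while GW-PBS held 608, 733, 656 and 580 and GW-LPS 1413, 631 and 1037. Both LPS groups thus overlapped their PBS groups. Gene by gene, 4 of the 41 were higher without overlap in unexposed mice and 0 lower (12.2% and 10.8% of all genes). The 4 higher genes are again near the share of all genes. In exposed mice 7 were higher and 1 lower (9.22% and 10.4%). GW-LPS 2 was the highest library of its group for 38 genes and GW-LPS 3 the lowest for 39.

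**Figure D2:**
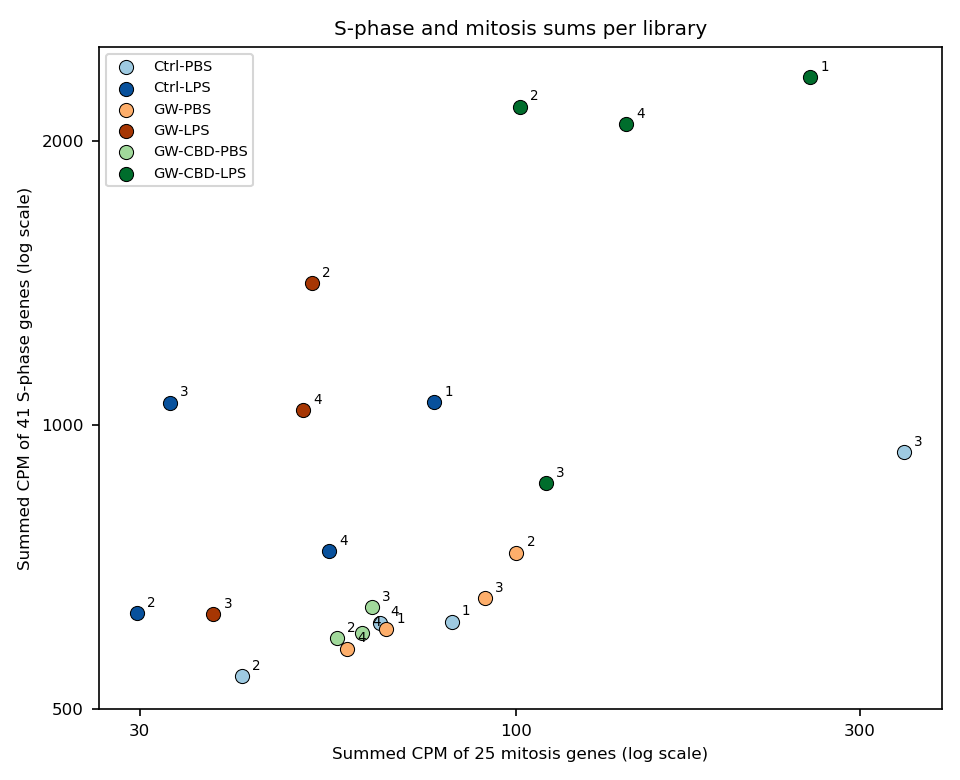
Summed CPM of the 41 replication genes (vertical, log scale) against that of 25 mitosis genes (horizontal, log scale), 1 numbered point for each library and 1 color for each group. GW-CBD-LPS 1, 2 and 4 lie at 2339, 2175 and 2084 CPM of replication genes and GW-CBD-LPS 3 at 868, and Ctrl-PBS 3 has the highest mitosis sum, 345 CPM.

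Among exposed mice given LPS, 5 of the 41 genes were higher with CBD than without it. Between GW-LPS and GW-CBD-LPS all 41 genes had a positive log2 fold change, with a median of 1.08, and none fell (1.06% of all genes rose and 1.24% fell). The 5 genes were the cyclins Ccne1 and Ccne2, the thymidine kinase Tk1, the clamp loader subunit Rfc3 and the transcription factor Tcf19. Groups did not overlap for 11 genes, all higher (6.51% of all genes higher and 6.34% lower), among them Rrm2, Pclaf, Clspn, Cdc45 and Tyms. The number that rose was 0 without GW-LPS 3, the library with the lowest replication RNA of its group, 1 without GW-LPS 4, 2 without GW-CBD-LPS 1 and 3 without GW-CBD-LPS 4. It was 12 without the libraries with granulocyte markers, which are in neither group but enter the estimate of the spread. DESeq2 called 13 and limma voom 36, and with only the compared groups in the fit 0 passed. The microglial marker sum also differed between these groups without overlap (28610 to 37207 CPM in GW-LPS and 43260 to 49839 in GW-CBD-LPS), and its part in these values was not tested. Without LPS, 0 of 41 genes changed with CBD (0% of all genes), 1 had an unadjusted p under 0.05, and DESeq2 and limma voom called 0. Their median log2 fold change was -0.12, and 4 of the 41 were lower and 0 higher without overlap (5.0% and 3.18% of all genes).

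Whether the LPS response itself differed was tested with interaction terms. Against unexposed mice the response of the CBD arm was larger for Rfc3, Tcf19, Tk1, Ccne2 and Pclaf (5 of 41 higher, 0.948% of all genes) and smaller for none (1.03% of all genes). That count was 0 without GW-CBD-PBS 3, 1 without GW-CBD-PBS 4, 2 without GW-CBD-PBS 2, GW-CBD-LPS 1 or 4, Ctrl-PBS 3, or Ctrl-LPS 2 or 4, and 8 without Ctrl-LPS 1. Against exposed mice without CBD, 0 of 41 passed (0.0121% of all genes higher and 0.00604% lower), with 22 at an unadjusted p under 0.05, 8 called by DESeq2 and 20 by limma voom. It was 2 without GW-LPS 2 and 3 without GW-CBD-LPS 2. All 41 differences were positive in that contrast and the smallest adjusted p was 0.0654, for Tk1. These contrasts share the GW-CBD libraries, so their values are given side by side and not as support for each other. For the exposure alone, 0 of 41 passed without LPS, after LPS and as an interaction with LPS (0% of all genes in each, and 0 with an unadjusted p under 0.05 in each), and DESeq2 and limma voom called 0 in each. The smallest adjusted p among them was 0.382 after LPS and 0.445 in the interaction. Groups without overlap were found for 0 genes without LPS (1.1% of all genes higher and 0.967% lower), and after LPS for 1 higher, Pola2, and 1 lower, Pclaf (6.31% and 6.25% of all genes).

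**Figure D3:**
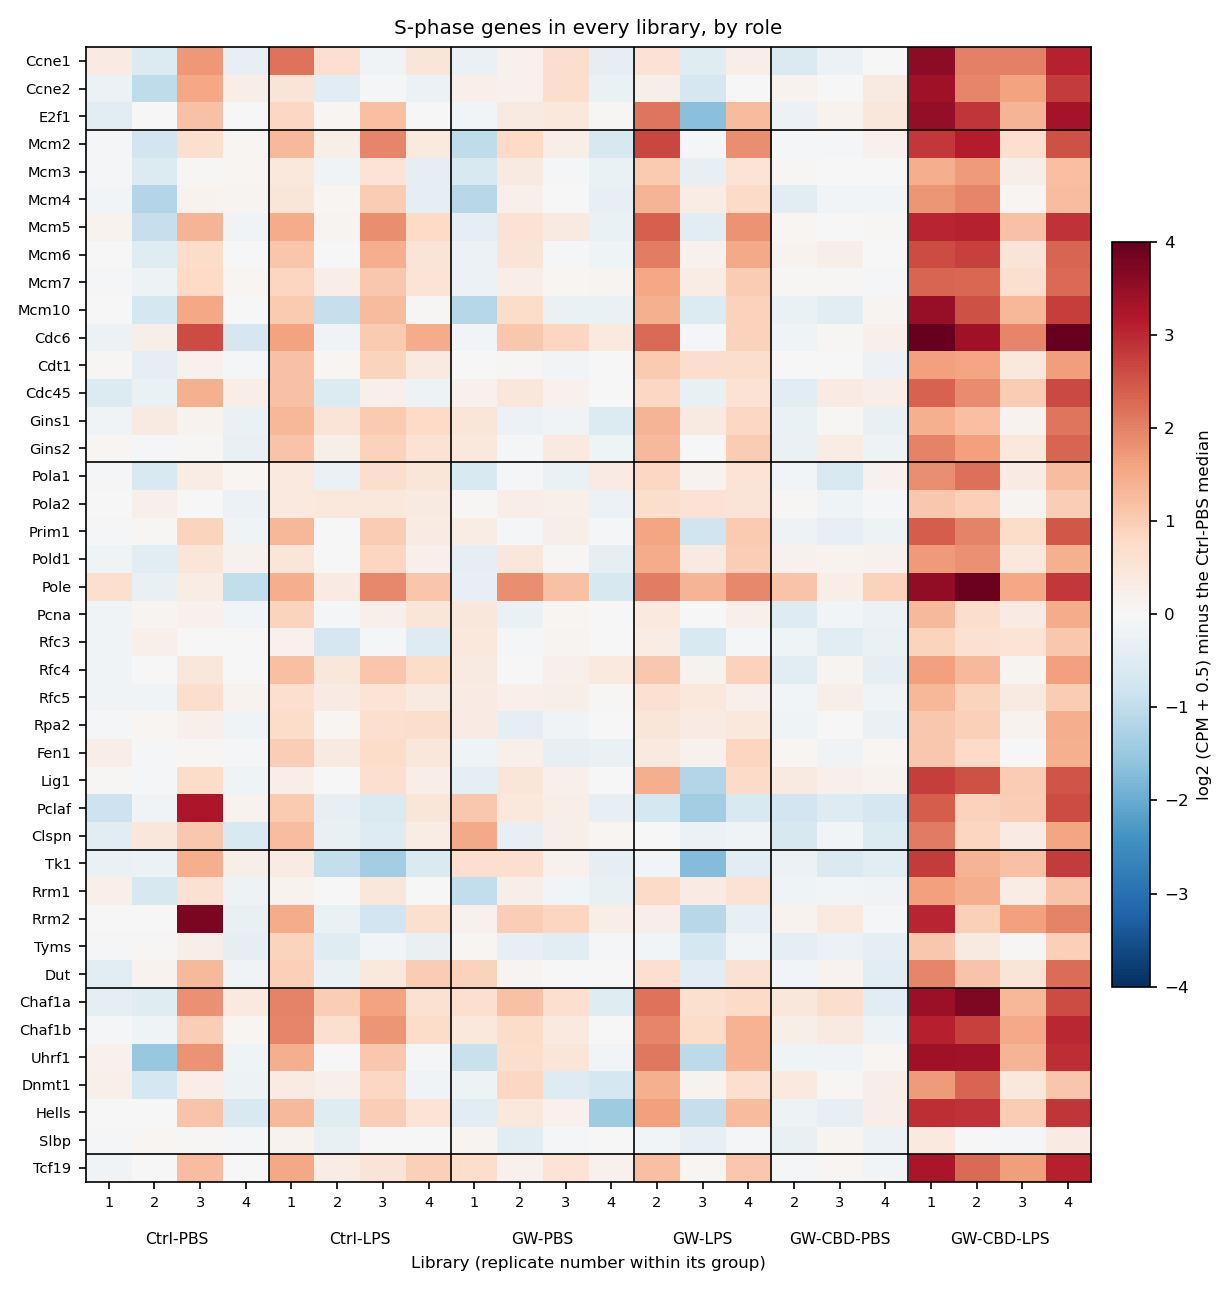
Level of each replication gene (rows, ordered by role) in each library (columns, by group), as log2 of CPM + 0.5 minus the Ctrl-PBS median, on a color scale from -4 to 4. GW-CBD-LPS 1, 2 and 4 are high for most genes, GW-CBD-LPS 3 is paler, and Ctrl-PBS 3 and GW-LPS 2 stand above the other libraries of their groups.

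Of the 3 regulators of the step into S phase, both cyclins rose with CBD after LPS (1.06% of all genes rose). Ccne1 (ENSMUSG00000002068, chromosome 7, 38097984 to 38107534, minus strand) encodes cyclin E1, which activates CDK2. It measured 1.28, 0.47, 4.27 and 0.64 CPM in Ctrl-PBS, 0.69, 1.12, 1.82 and 0.59 in GW-PBS, and 0.45, 0.72 and 0.93 in GW-CBD-PBS. After LPS it measured 5.89, 1.78, 0.79 and 1.48 CPM in Ctrl-LPS, 1.64, 0.52 and 1.21 in GW-LPS, and 16.6, 5.28, 5.26 and 11.6 in GW-CBD-LPS. Every GW-CBD-LPS library was above every GW-LPS and GW-CBD-PBS library. Ccne1 rose with LPS in the CBD arm (log2 fold change 3.79 ± 0.81, adjusted p = 0.0475) and with CBD after LPS (3.10 ± 0.78, adjusted p = 0.0370). In unexposed mice and in exposed mice without CBD its LPS fold change was 0.57 ± 0.65 and 0.09 ± 0.72, neither past the threshold. Neither sign held: the first was -0.30 without Ctrl-LPS 1, and the second -0.30 without GW-LPS 2.

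Ccne2, the second cyclin E, measured 1.10, 0.44, 4.96 and 1.73 CPM in Ctrl-PBS, 2.17, 0.92, 1.29 and 1.09 in Ctrl-LPS, 1.68, 1.61, 2.57 and 1.06 in GW-PBS, and 1.58, 1.40 and 1.94 in GW-CBD-PBS. It measured 1.71, 0.69 and 1.42 CPM in GW-LPS and 19.4, 6.81, 5.2 and 12.5 in GW-CBD-LPS, which were the highest of all 22 libraries. Its gene shares exon bases with Ints8 on the opposite strand. It rose with CBD after LPS (3.10 ± 0.64, adjusted p = 0.0110), and its LPS response was larger in the CBD arm than in unexposed mice (3.33 ± 0.82, adjusted p = 0.0384). Without Ctrl-PBS 3 that difference was 2.45 (adjusted p = 0.0684), and the LPS fold change in unexposed mice turned from -0.59 ± 0.54 to 0.28. Within the CBD arm the LPS fold change of 2.74 ± 0.63 missed the threshold (adjusted p = 0.0537). E2f1, a transcription factor that activates many S-phase genes, averaged 6.29 ± 1.57 CPM in GW-CBD-PBS (n = 3) and 47.6 ± 24.0 in GW-CBD-LPS (n = 4). Its fold change of 2.92 ± 0.67 also missed it (adjusted p = 0.0537). The call on Ccne2 after LPS was lost without GW-LPS 3 or 4, and its interaction call without Ctrl-PBS 3 or 4, Ctrl-LPS 2 or 4, GW-CBD-LPS 1 or 4 or any GW-CBD-PBS library. The call on Ccne1 after LPS was lost in every fit without 1 library except that without GW-CBD-LPS 2.

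Of the 12 genes of origin licensing, Cdt1 was the only one that rose with LPS in each of the 3 arms. Of these 12 genes 4 rose in the CBD arm (Mcm6, Mcm7, Cdt1 and Gins2), 3 in exposed mice without CBD (Mcm2, Mcm6 and Cdt1) and 2 in unexposed mice (Cdt1 and Gins1), where 0.393%, 4.45% and 10.8% of all genes rose. The median log2 fold change of the 12 was 2.08, 1.02 and 0.66 in that order. Between GW-LPS and GW-CBD-LPS none of the 12 rose (1.06% of all genes rose and 1.24% fell). Their median was 0.87, the smallest adjusted p was 0.0837, for Cdc45, and 7 had an unadjusted p under 0.05. For 1 gene the groups did not overlap, with CBD higher (6.51% of all genes higher and 6.34% lower). For 12 genes both counts are near these shares.

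Cdt1 (ENSMUSG00000006585, chromosome 8, 122568015 to 122573554), which loads the helicase, measured 16.8, 12.3, 18.1 and 15.5 CPM in Ctrl-PBS and 36.8, 17.2, 30.4 and 21.01 in Ctrl-LPS. In exposed mice it measured 16.0, 16.7, 15.1 and 15.8 CPM before LPS and 33.8, 26.7 and 26.8 after it, with no overlap. The CBD arm went from 16.0, 16.5 and 13.8 CPM to 51.4, 49.3, 21.9 and 52.9, also without overlap. The log2 fold changes were 0.75 ± 0.24 (adjusted p = 0.0287), 0.87 ± 0.25 (0.0326) and 1.51 ± 0.26 (0.0201), and the 2 interaction terms of the CBD arm were 0.76 ± 0.35 and 0.64 ± 0.36 (adjusted p = 0.294 and 0.401). In unexposed mice the call was lost without Ctrl-PBS 2 or 4 or Ctrl-LPS 1 or 3. In exposed mice only the fit without GW-PBS 2 kept it.

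Of the 6 helicase subunits, Mcm6 and Mcm7 rose in the CBD arm. Mcm7 (ENSMUSG00000029730, chromosome 5, 138164583 to 138172422, minus strand) measured 25.9, 25.7 and 24.0 CPM in GW-CBD-PBS and 126, 123, 38.7 and 122 in GW-CBD-LPS. GW-CBD-LPS 3 lay far from the other 3 libraries of its group and still above the PBS libraries. Its fold change was 2.02 ± 0.36 (adjusted p = 0.0201) in the CBD arm and 1.00 ± 0.33 (adjusted p = 0.0605) in exposed mice without CBD. Mcm7 shares exon bases with Ap4m1 and Cops6 on the opposite strand. Mcm6 measured 33.0, 35.1 and 30.5 CPM in GW-CBD-PBS and 186, 202, 42.6 and 153 in GW-CBD-LPS, and 25.1, 42.8, 28.7 and 26.6 in GW-PBS against 125, 34.2 and 85.9 in GW-LPS. It rose in both arms, by 2.15 ± 0.47 (adjusted p = 0.0485) and 1.41 ± 0.44 (adjusted p = 0.0462) on the log2 scale, although GW-LPS 3 lay within the GW-PBS range. Mcm2 rose in exposed mice without CBD (1.88 ± 0.58, adjusted p = 0.0438), where it measured 8.88, 32.3, 21.8 and 11.5 CPM before LPS and 119, 17.8 and 68.4 after. Both of these calls were lost without GW-LPS 2 or 4 or GW-PBS 1, 3 or 4. Mcm3, Mcm4 and Mcm5 had fold changes of 1.23, 1.66 and 2.71 in the CBD arm, none past the threshold (adjusted p = 0.116, 0.0955 and 0.0537).

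Among the genes that complete the active helicase, Gins2 rose in the CBD arm (1.88 ± 0.37, adjusted p = 0.0392) and Gins1 in unexposed mice (0.97 ± 0.34, adjusted p = 0.0466). Gins1 measured 4.54, 6.67, 5.74 and 4.14 CPM in Ctrl-PBS and 13.6, 7.46, 11.0 and 9.21 in Ctrl-LPS, with no overlap. Its call was lost without any 1 of 6 libraries, Ctrl-PBS 1, 3 or 4 or Ctrl-LPS 1, 3 or 4. Cdc6, the other loading factor, had the largest fold change of all 41 genes in the CBD arm at 4.56 ± 1.07 (adjusted p = 0.0655). It measured 0.41, 0.55 and 0.67 CPM before LPS and 18.9, 10.3, 3.48 and 18.4 after. Mcm10, which helps start the helicase, had a fold change of 3.81 ± 1.12 (adjusted p = 0.176).

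**Figure D4:**
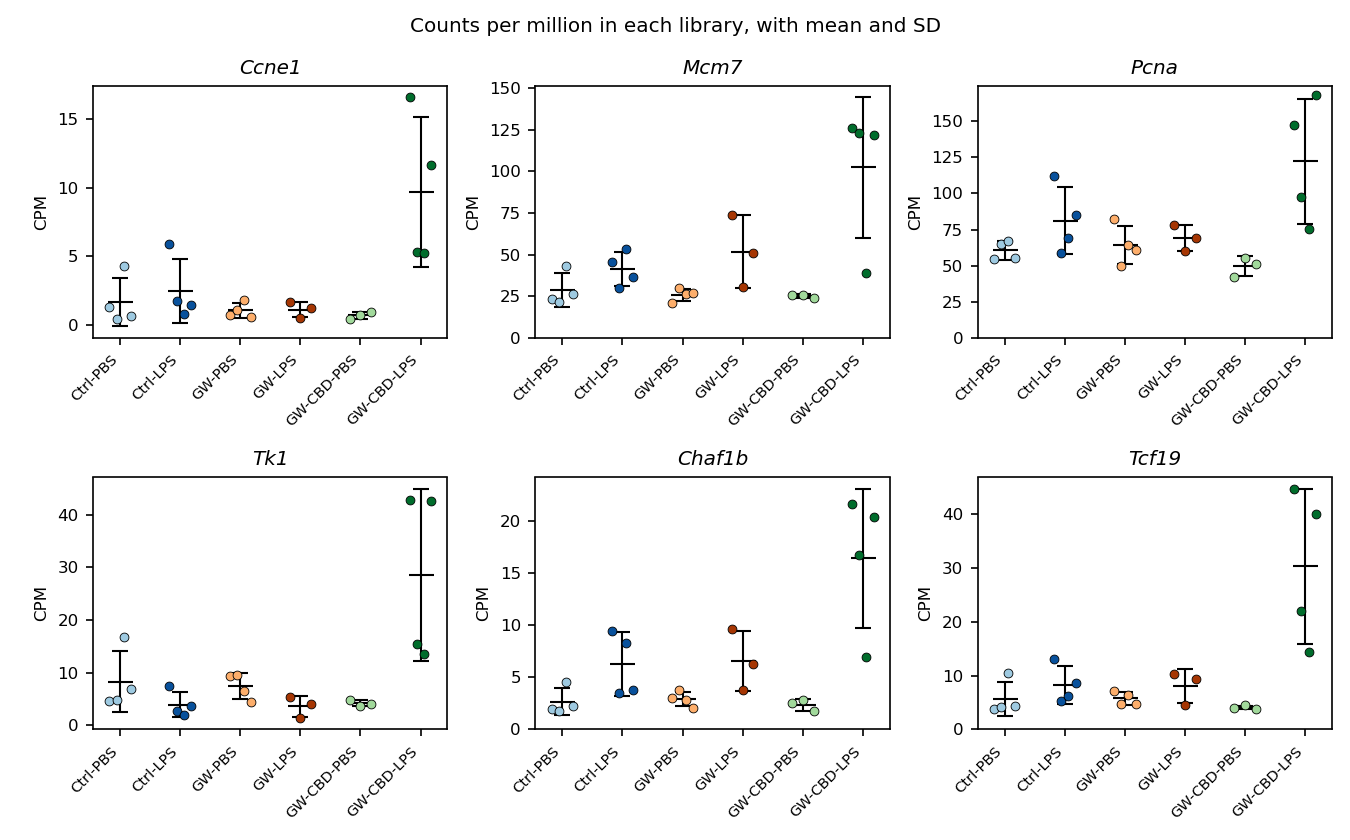
CPM of Ccne1, Mcm7, Pcna, Tk1, Chaf1b and Tcf19 in each library by group, on linear axes, with a point for each library and lines for the mean and SD. Each gene is higher in all 4 GW-CBD-LPS libraries than in all 3 GW-CBD-PBS libraries.

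The fork enzymes, with 14 genes the largest set by role, had the lowest median log2 fold change of these sets in the CBD arm, 1.44. Of the 14 genes 7 rose there (0.393% of all genes rose). These were Pcna, the sliding clamp that holds the polymerases on DNA; Rfc3 and Rfc4, subunits of its loader; Pola2 and Prim1, subunits of the primase complex; Rpa2, which covers single-stranded DNA; and Lig1, the ligase that joins Okazaki fragments. Pcna (ENSMUSG00000027342, chromosome 2, 132249162 to 132253314, minus strand) measured 41.8, 55.6 and 51.5 CPM in GW-CBD-PBS and 148, 97.7, 75.1 and 168 in GW-CBD-LPS, without overlap. It rose by 1.30 ± 0.25 on the log2 scale (adjusted p = 0.0388), against 0.11 ± 0.24 in exposed mice without CBD. Named pseudogenes of Pcna exist, so its share of reads is uncertain.

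Rfc3 (ENSMUSG00000033970, chromosome 5, 151642756 to 151651242, minus strand) measured 15.2, 19.7, 17.1 and 16.7 CPM in Ctrl-PBS and 19.1, 10.52, 16.1 and 11.6 in Ctrl-LPS, which overlapped. GW-PBS held 22.6, 16.3, 18.2 and 16.7 CPM and GW-LPS 20.7, 10.9 and 16.5, which overlapped too. In the CBD arm it went from 14.9, 12.5 and 13.9 CPM to 31.6, 25.9, 24.7 and 35.8, and these 4 values were the highest of all 22 libraries. Rfc3 rose with LPS in the CBD arm (1.10 ± 0.22, adjusted p = 0.0392) and with CBD after LPS (0.88 ± 0.22, adjusted p = 0.0348), and its response differed from that of unexposed mice by 1.37 ± 0.29 (adjusted p = 0.0188). The interaction call was lost without GW-CBD-PBS 3 or 4 (adjusted p = 0.0654 and 0.0522), and the call after LPS without GW-LPS 3 or 4 or GW-CBD-LPS 1 or 4.

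Rfc4 rose in unexposed mice (0.84 ± 0.29, adjusted p = 0.0412) and in the CBD arm (1.57 ± 0.32, adjusted p = 0.0415). Its levels were 6.55, 7.22, 10.1 and 7.21 CPM in Ctrl-PBS and 17.3, 10.1, 16.2 and 12.2 in Ctrl-LPS, where the lowest LPS library lay just under the highest PBS library. It shares exon bases with Eif4a2 on the opposite strand. The call in unexposed mice was kept only without Ctrl-PBS 3 or Ctrl-LPS 2. Prim1 and Lig1 rose by 2.48 ± 0.51 and 2.16 ± 0.46 in the CBD arm, Rpa2 by 1.13 ± 0.23 and Pola2 by 0.89 ± 0.18 (adjusted p = 0.0438, 0.0456, 0.0438 and 0.0415). Pold1, the catalytic subunit of polymerase delta, rose in exposed mice without CBD (1.05 ± 0.31, adjusted p = 0.0363), from 18.7, 33.0, 24.8 and 18.2 CPM to 68.3, 30.9 and 48.0. GW-LPS 3 was below GW-PBS 2, and the call was lost without GW-LPS 2 or 4 or GW-PBS 1, 3 or 4.

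Pclaf, which binds the clamp, and Clspn, which tracks the fork in its checkpoint, had negative LPS fold changes in exposed mice (-1.94 ± 0.93 and -1.33 ± 0.96) and positive ones in the CBD arm (3.26 ± 0.96 and 3.37 ± 1.05), none past the threshold. Pclaf measured 3.42, 1.97, 1.71 and 0.98 CPM in GW-PBS and 0.64, 0.20 and 0.72 in GW-LPS, where the groups did not overlap, and 0.60, 0.80 and 0.67 in GW-CBD-PBS against 9.46, 2.99, 3.14 and 10.9 in GW-CBD-LPS. The LPS response of the CBD arm exceeded that of unexposed mice by 4.76 ± 1.24 (adjusted p = 0.0498), a size that rested on Ctrl-PBS 3, the library with the granulocyte markers. It held 17.0 CPM against 0.55, 1.17 and 1.57 in the rest of its group and 3.37, 0.97, 0.74 and 2.12 in Ctrl-LPS. Without it the difference was 2.59 (adjusted p = 0.1145), and the LPS fold change in unexposed mice turned from -1.50 ± 0.80 to 0.66. That call was also lost without Ctrl-LPS 2, 3 or 4, without GW-CBD-LPS 1, 3 or 4 and without any GW-CBD-PBS library.

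Of the 5 genes of nucleotide supply, Tk1 alone rose in the CBD arm (0.393% of all genes rose). None of the 5 changed with LPS in unexposed mice (10.8% of all genes rose and 9.62% fell) or in exposed mice without CBD (4.45% and 5.07%). For so few genes a count of 0 is near these shares. The 5 genes had a median log2 fold change of 1.86 with LPS in the CBD arm and of 0.09 and -0.11 in the other 2 arms. Tk1 (ENSMUSG00000025574, chromosome 11, 117815526 to 117826092, minus strand) encodes the thymidine kinase that salvages thymidine in S phase. It measured 4.66, 4.78, 16.8 and 6.88 CPM in Ctrl-PBS and 7.36, 2.72, 1.88 and 3.69 in Ctrl-LPS. The value of 16.8 CPM came from Ctrl-PBS 3, the library with the granulocyte markers. It adds to the size of the negative LPS fold change in unexposed mice and of the interaction with them, both given below. Without that library the fold change kept its sign. GW-PBS held 9.36, 9.45, 6.52 and 4.34 CPM and GW-LPS 5.34, 1.38 and 4.02. GW-CBD-PBS held 4.85, 3.67 and 4.08 CPM and GW-CBD-LPS 42.9, 15.4, 13.5 and 42.5, with no overlap, while the first 2 pairs of groups overlapped.

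The log2 fold change of Tk1 with LPS was -1.09 ± 0.50 in unexposed mice and -1.05 ± 0.55 in exposed mice, neither past the threshold (adjusted p = 0.135 and 0.253), and 2.76 ± 0.59 in the CBD arm (adjusted p = 0.0456). Its response in the CBD arm exceeded that in unexposed mice by 3.85 ± 0.76 (adjusted p = 0.0122) and that in exposed mice by 3.81 ± 0.80 (adjusted p = 0.0654). With CBD after LPS it rose by 2.99 ± 0.59 (adjusted p = 0.00861), a call lost only without GW-LPS 3 (adjusted p = 0.0739) among the fits without 1 library. The interaction call was lost only without GW-CBD-PBS 3 (adjusted p = 0.0512). Tk1 shares exon bases with Afmid on the opposite strand.

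Rrm2, the regulated subunit of ribonucleotide reductase, had negative LPS fold changes of -1.61 ± 0.78 in unexposed and -1.04 ± 0.86 in exposed mice and a positive one of 2.10 ± 0.88 in the CBD arm, none past the threshold (adjusted p = 0.155, 0.501 and 0.367). It measured 2.74, 2.83, 43.7 and 2.18 CPM in Ctrl-PBS, and 8.63, 2.25, 1.43 and 4.65 in Ctrl-LPS. The negative sign in unexposed mice came from Ctrl-PBS 3, the library with the granulocyte markers, and without it the fold change was 0.66. In GW-CBD-LPS it measured 26.8, 5.85, 9.83 and 12.6 CPM, above the 3.45, 1.03 and 2.14 of GW-LPS. Rrm1, the large subunit, had an LPS fold change of 1.35 ± 0.31 in the CBD arm (adjusted p = 0.0534). Tyms and Dut, which make and protect the thymidine nucleotide pool, had 1.00 ± 0.29 and 1.86 ± 0.49 (adjusted p = 0.176 and 0.111).

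**Figure D5:**
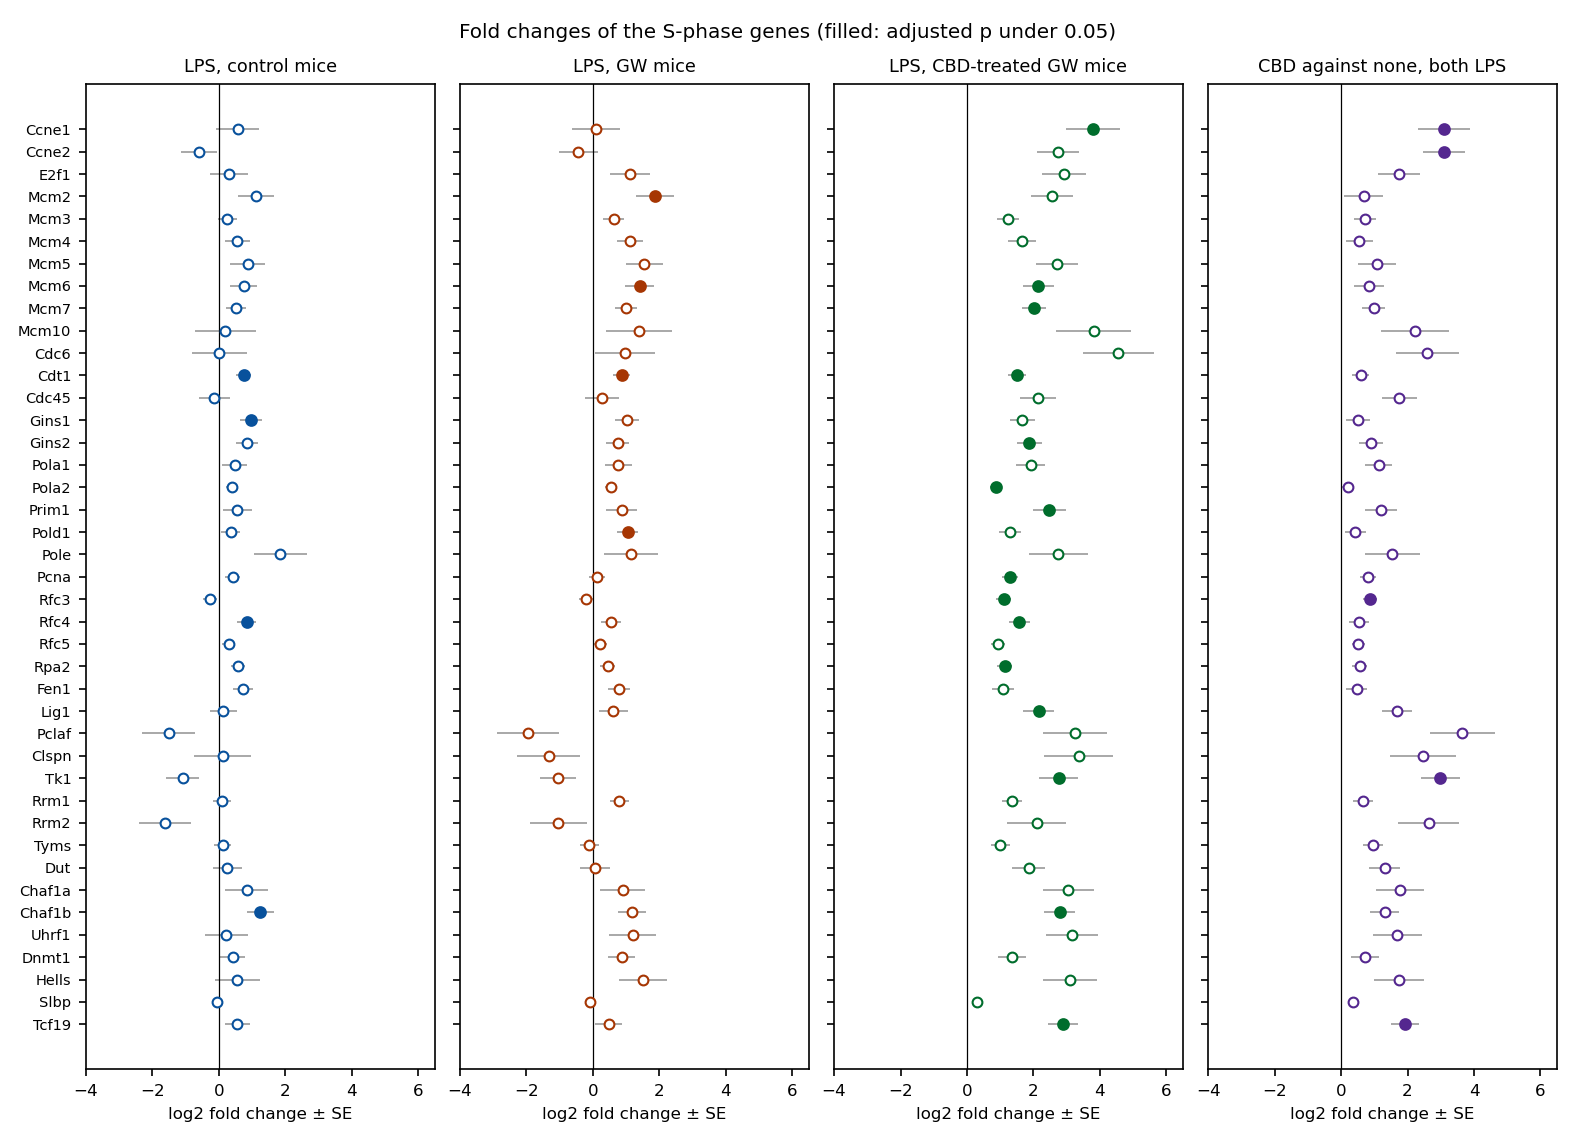
Log2 fold change of each replication gene with its SE (bars), for LPS in unexposed, exposed and CBD-treated exposed mice and for CBD after LPS, with filled points where the adjusted p was under 0.05. All 41 points lie above 0 in the CBD arm and for CBD after LPS, and Tk1 lies below 0 in unexposed and in exposed mice (-1.09 and -1.05), while the points of Rrm2 and Pclaf below 0 in unexposed mice turn to 0.66 without Ctrl-PBS 3.

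Of the 6 genes of chromatin supply, Chaf1b alone rose in the CBD arm (0.393% of all genes rose), although the median log2 fold change of the 6 was 2.92. Chaf1b (ENSMUSG00000022945, chromosome 16, 93883901 to 93906115) encodes a subunit of the complex that places histones on new DNA. It measured 2.53, 2.82 and 1.74 CPM in GW-CBD-PBS and 21.6, 16.7, 6.89 and 20.4 in GW-CBD-LPS, and 1.95, 1.79, 4.56 and 2.21 in Ctrl-PBS against 9.40, 3.50, 8.32 and 3.82 in Ctrl-LPS. The CBD arm did not overlap, and in unexposed mice Ctrl-PBS 3 lay above 2 of the LPS libraries. Chaf1b rose by 2.79 ± 0.47 (adjusted p = 0.0182) in the CBD arm and by 1.25 ± 0.40 (adjusted p = 0.0322) in unexposed mice, on the log2 scale. The second call was lost without Ctrl-PBS 1, 2 or 4 or Ctrl-LPS 1 or 3.

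Uhrf1 and Dnmt1, which copy DNA methylation onto the new strand, had fold changes of 3.16 ± 0.79 and 1.35 ± 0.42 in the CBD arm (adjusted p = 0.0858 and 0.205). Hells, a chromatin remodeller, had 3.10 ± 0.81 and Chaf1a 3.06 ± 0.77 (adjusted p = 0.102 and 0.0888). Slbp, which binds histone messenger RNA, had the smallest fold change of all 41 genes, 0.31 ± 0.15 (adjusted p = 0.474), with 88.0 ± 13.5 CPM in GW-CBD-PBS (n = 3) and 109 ± 17.8 in GW-CBD-LPS (n = 4).

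Tcf19, a transcription factor gene expressed at the entry into S phase, had the smallest adjusted p of the 41 genes in the CBD arm. The gene (ENSMUSG00000050410) lies on chromosome 17, 35512734 to 35516824, minus strand. It measured 3.71, 4.10, 10.4 and 4.25 CPM in Ctrl-PBS, 13.04, 5.30, 6.18 and 8.53 in Ctrl-LPS, and 7.08, 4.76, 6.32 and 4.76 in GW-PBS. It measured 3.99, 4.44 and 3.79 CPM in GW-CBD-PBS and 44.6, 22.1, 14.3 and 40.1 in GW-CBD-LPS, against 10.2, 4.45 and 9.34 in GW-LPS. GW-CBD-LPS stood above all other groups without overlap. Tcf19 rose with LPS in the CBD arm (2.89 ± 0.45, adjusted p = 0.0129) and with CBD after LPS (1.92 ± 0.43, adjusted p = 0.0186), and its response exceeded that of unexposed mice (2.34 ± 0.57, adjusted p = 0.0355). The first call held without any 1 GW-CBD-LPS library and was lost without any 1 GW-CBD-PBS library. The second was lost without GW-LPS 3 or 4 or GW-CBD-LPS 1, and the interaction call without Ctrl-PBS 3, Ctrl-LPS 2 or 4, GW-CBD-LPS 1 or 4 or any GW-CBD-PBS library.

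Per kilobase of exon, Pcna (25.3), Mcm3 (23.1) and Slbp (15.8 CPM per kilobase) were the most abundant in Ctrl-PBS, and Pole the least (0.05). In GW-CBD-LPS Mcm3 led with 58.6, before Pcna with 50.9, Mcm5 with 33.3 and Mcm6 with 31.2 CPM per kilobase. Mcm10, Pole, Clspn, Cdc6, Hells and Pclaf had under 10 counts in at least 1 library, so their single values carry counting error.

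Other genes of the cell cycle were counted in the same fit. Of 44 further replication genes 7 rose with LPS in unexposed mice, 3 in exposed mice and 7 in the CBD arm (10.8%, 4.45% and 0.393% of all genes), and none fell. Without 1 library these counts ran from 3 to 8, from 1 to 6 and from 0 to 17, the last reached without GW-CBD-LPS 3. Among those that rose in the CBD arm were the histone chaperone Asf1b (2.29 ± 0.46, adjusted p = 0.0392) and the clamp loader subunit Rfc2 (0.83 ± 0.17, adjusted p = 0.0438). The median of the 44 in that arm was 0.66, beside 2.10 for the 41 genes. Of 30 genes of G1, 3 rose and 2 fell in unexposed mice, 2 rose and 1 fell in exposed mice and 1 rose in the CBD arm, where 9.62% and 5.07% of all genes fell in the first 2 of these comparisons. Myc, which drives growth and entry into the cycle, rose with LPS in unexposed mice (1.65 ± 0.22) and in exposed mice (0.88 ± 0.23), and fell with CBD after LPS (log2 fold change -1.01 ± 0.23). The last call on Myc was lost without GW-LPS 3 or GW-CBD-LPS 1 or 4, and that in exposed mice without GW-LPS 3 or GW-PBS 1 or 3.

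Of the 25 genes of mitosis none rose with LPS (10.8% of all genes rose in unexposed mice, 4.45% in exposed mice and 0.393% in the CBD arm). In unexposed mice 11 of them fell with LPS (median -1.68, 9.62% of all genes fell), and 1, Cenpf, fell in exposed mice (median -0.77, 5.07% of all genes). None passed in the CBD arm, where the median was 1.38 and 11 had an unadjusted p under 0.05. There 24 of the 25 had a positive log2 fold change, and 15 were higher without overlap and 0 lower (8.38% and 5.79% of all genes). The summed CPM of the 25 was 81.3, 41.6, 345 and 64.7 in Ctrl-PBS. Without Ctrl-PBS 3 only 1 of the 25 fell in unexposed mice, with a median of -0.60. Ctrl-PBS 3 was the library with 17249 CPM of granulocyte precursor markers. The number of the 25 that fell was 3 without all 3 libraries with granulocyte markers, 5 without Ctrl-LPS 2 or 3, 6 without Ctrl-LPS 4, 1 with only the compared groups in the fit, and 2 with limma voom. The call on Cenpf in exposed mice was lost without GW-PBS 4 or GW-LPS 3 or 4. The sum was 52.0, 37.95 and 50.6 CPM in GW-LPS and 256, 101, 110 and 142 in GW-CBD-LPS, with no overlap. Of the 25, Cdk1, the kinase that drives mitosis, was the only one that rose with CBD after LPS (2.04 ± 0.52, adjusted p = 0.0403, 1.06% of all genes rose), and it lost that call without GW-LPS 2, 3 or 4 or GW-CBD-LPS 1, 3 or 4. All 25 had a positive log2 fold change in that comparison, with a median of 1.78 beside 1.08 for the 41 replication genes. In 19 the groups did not overlap, all higher (6.51% of all genes higher and 6.34% lower). Against unexposed mice the LPS response of the CBD arm was larger for Cdk1, Top2a and Bub1 (3 of 25, 0.948% of all genes). The median difference of the 25 was 2.84. These calls held in 5, 6 and 6 of 15 fits without 1 library. The ratio of summed replication to summed mitosis CPM had a median of 8.57 in Ctrl-PBS and 17.5 in Ctrl-LPS, 8.28 in GW-PBS and 20.5 in GW-LPS, and 10.2 in GW-CBD-PBS and 11.9 in GW-CBD-LPS. The ratio was higher in every Ctrl-LPS than in every Ctrl-PBS library and in every GW-LPS than in every GW-PBS library, while the CBD groups overlapped.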

How the data were processed

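The deposited table held whole-number counts of reads per gene, which the authors made by aligning reads to GRCm38 (mm10), per the labels. Which programs aligned and counted the reads, with which strand setting and which gene models, is not stated in the labels. The libraries were stranded poly(A) libraries of 150 bp read pairs, per the labels' protocols. Of the 41 genes, 12 share exon bases with a gene on the opposite strand and Pcna and Tyms have named pseudogenes, so their shares of reads are uncertain.

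Members were matched by symbol, and exon lengths and gene coordinates came from GENCODE M21. All 22 libraries entered 1 fit of edgeR 4.0.16 under R 4.3.3, with its quasi-likelihood test, TMM factors, the filter filterByExpr and a mean for each of 6 groups, two-sided, with Benjamini-Hochberg adjustment over 16554 genes and a threshold of 0.05. The SE of a log2 fold change was its size divided by the square root of F. CPM values use the TMM factors. Every adjusted p without another tool named comes from this fit or, where said, from an alternative edgeR fit. Every share of all genes comes from this fit, and none was counted for the alternatives. The replication genes, the other lists, the rule for named genes and the alternatives, among them leaving out the 3 libraries with raised neutrophil or granulocyte markers, were chosen with earlier results of these data known. All 41 genes could be named, and of each other list up to 3 called genes with the smallest p per comparison. A gene that this rule names is not reported here.

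Alternatives were RLE size factors, no filter on low counts, DESeq2 1.42.0, voom with quality weights of limma 3.58.1, a fit of only the groups compared, a block for the replicate number, and fits that each omit 1 library. The procedure was tested on simulated counts in which 200 genes were changed. For LPS in the CBD arm it recovered 13.6% of the smallest changes and 88.7% of the largest, and 8.47% of its calls were false. For LPS in unexposed mice it recovered 18.2% and 91.9%, and 1.83% of its calls were false. Promoter stretches were RefSeq's, build GRCm38.p6. Figures were drawn with matplotlib 3.10.9.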

Additional observations from a re-analysis of the deposited data

Results flagged for a closer look

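Over 200 groups of 4 libraries tested, 19 values stood apart from the rest of their group (chance gives about 1 in 20), and most came from 2 libraries. Ctrl-PBS 3 was above the rest of Ctrl-PBS for Mcm10 (2.68 CPM), Cdc6 (5.68), Prim1 (7.09), Pclaf (16.98), Rrm2 (43.74), Chaf1b (4.56) and Tcf19 (10.44 CPM). Its summed CPM of the 3 G1/S regulators was 22.57, of the 5 nucleotide genes 148.73, of the 30 G1 genes 998.1 and of the 25 mitosis genes 345.1, each far above the other Ctrl-PBS libraries. The summed granulocyte precursor markers in that library were 17249 CPM, and their part in these values was not tested.

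GW-CBD-LPS 3 was below the rest of its group for Mcm5 (44.64 CPM against 150.3 in the next library), Mcm7 (38.68), Cdt1 (21.93), Pola2 (24.5) and Hells (3.05 CPM). Its neutrophil and granulocyte marker sums lay within the range of the other libraries without raised markers. Its microglial marker sum, 49839 CPM, was within that range too but the highest of its group (43260 to 47123 CPM in the rest). It was also above every GW-CBD-PBS library (46327 to 49165 CPM), and its part in these values was not tested. Single values that stood apart elsewhere were Pola2 in Ctrl-LPS 4 (29.25 CPM, below a group that otherwise spans 30.37 to 30.53), Rpa2 in Ctrl-LPS 2 (22.17 CPM) and Dut in GW-PBS 1 (8.49 CPM).

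The response to LPS differed between the CBD arm and unexposed mice by an interaction test for 5 genes, by a log2 difference of 1.37 for Rfc3, 2.34 for Tcf19, 3.85 for Tk1, 3.33 for Ccne2 and 4.76 for Pclaf. Each of these 5 had a larger fold change in the CBD arm. Without Ctrl-PBS 3 the differences for Pclaf, Ccne2 and Tcf19 were 2.59, 2.45 and 1.88, none past the threshold (edgeR adjusted p = 0.1145, 0.0684 and 0.0570).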

How the results depend on the processing

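Of 159 log2 fold changes of single genes that were recomputed, 5 changed sign under at least 1 alternative, none of which passed the threshold with all libraries. Without the 3 libraries of raised neutrophil markers the LPS fold change in unexposed mice was 0.077 for Rrm2 (-1.61 with all) and 0.19 for Pclaf (-1.50), and that in exposed mice -0.077 for Ccne1 (0.09). Leaving out 1 library at a time, the LPS fold change in unexposed mice ran from -2.22 to 0.66 for Rrm2 and from -1.99 to 0.66 for Pclaf, both positive only without Ctrl-PBS 3. It ran from -0.93 to 0.28 for Ccne2 (-0.59 with all), positive only without Ctrl-PBS 3, and from -0.30 to 1.58 for Ccne1 (0.57), negative only without Ctrl-LPS 1. In exposed mice Ccne1 ran from -0.30 to 0.49, negative without GW-LPS 2 or GW-PBS 1 or 4. The counts of replication genes that rose depended on the processing as well. With LPS in unexposed mice (4 genes) they were 2 with RLE size factors, 2 with no filter, 1 with the replicate block and 1 without those 3 libraries. With LPS in exposed mice (4 genes) they were 9 with DESeq2, 15 with limma voom, 1 with the compared groups alone, 1 with the replicate block and 1 without those 3 libraries. With LPS in the CBD arm (15 genes) they were 27 with no filter, 39 with DESeq2, 41 with limma voom, 0 with the replicate block and 31 without those 3 libraries. With CBD after LPS (5 genes) they were 13 with DESeq2, 36 with limma voom, 0 with the compared groups alone, 2 with the replicate block and 12 without those 3 libraries. For the interaction of CBD and LPS (0 genes) they were 1 with no filter, 8 with DESeq2, 20 with limma voom and 1 without those 3 libraries, and for the CBD arm against unexposed mice (5 genes) 13 with DESeq2, 25 with limma voom, 2 with the replicate block and 3 without those 3 libraries. The cause of these differences was not tested.

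Leaving out 1 library at a time, the counts ran from 0 to 6 in unexposed mice (0 to 1 lower), 0 to 7 in exposed mice, 0 to 34 in the CBD arm, 0 to 7 for CBD after LPS, 0 to 3 for the interaction of CBD and LPS and 0 to 8 for the CBD arm against unexposed mice. The comparisons of exposure, and of CBD without LPS, gave 0 genes under every alternative. Replicate numbers gave no sign of pairing the libraries. Over 51 pairs of libraries with the same number in different groups the median correlation of deviations was 0.0141 (-0.285 to 0.315). It was 0.00159 (-0.308 to 0.387) for 150 pairs with different numbers. A median near 0 cannot show that no libraries were handled together, and this was not tested. Groups of 3 or 4 libraries, a common biological coefficient of variation of 0.352 and single values under 10 counts for 6 genes limit what could be detected.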
